A study of Homo sapiens with 38 samples.

Results

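The 8 genes described here were ANKRD1, CTGF, CYR61, AMOTL2, LATS2, AJUBA, TEAD1 and YAP1, a set of reported targets and regulators of the transcriptional pair YAP and TEAD. They were taken by symbol, with CTGF and CYR61 under these older names for CCN2 and CCN1, as 8 of the 43412 gene rows of the deposited table. All 8 passed the filter on low counts and were among the 24304 genes tested. Total RNA had been sequenced from H9, an established human embryonic stem cell line, over a time course of WNT pathway activation in 3 arms. In the CHIR99021 arm, H9 cells received 10 µM of this inhibitor of the kinase GSK3 and were collected at 0, 8, 16, 24, 48 and 72 h. In the Wnt3a arm, H9 cells received 240 ng/ml of the recombinant ligand and were collected at 0, 8, 24, 48, 72, 96 and 120 h. The bcat arm used an H9 derivative with a stably integrated, doxycycline-regulated deltaN90 mutant of beta-catenin, which lacks the part that marks the protein for destruction, and it received 1 µg/ml doxycycline for 0, 8, 16, 24, 48 or 72 h. Whether this line was 1 clone is not given in the sources used here.

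The cells of every arm were plated at confluence, and 16 h later they went from mTeSR1 into RPMI1640 with B27 together with the agent, both renewed every 24 h. A culture given the new medium without an agent, and plain H9 given doxycycline, were not analysed here, so treatment, medium and time since plating cannot be told apart within an arm. Each arm had its own 0 h libraries, all times of an arm share them, and each group held 2 libraries except Wnt3a 72 h, whose 2 deposited columns were identical and were counted as n = 1. The bulk libraries cannot tell fewer cells of a type from less RNA per cell.

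The Hippo pathway is a kinase cascade in which MST kinases activate LATS1 and LATS2, and the LATS kinases phosphorylate YAP and its relative TAZ, which holds both in the cytoplasm. When the cascade is low, as in cells that are spread or under tension, YAP and TAZ enter the nucleus and bind TEAD factors, which carry them to DNA. CTGF, CYR61 and ANKRD1 are the readouts most often used for this step, and several of the induced genes, LATS2 and AMOTL2 among them, feed back on YAP. In human embryonic stem cells YAP and TEAD have been reported to restrain genes of the mesendoderm, which WNT and NODAL signals switch on.

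TEAD factors bind the letters GGAATG, and the stretches that hold them just before the start of 5 of the genes are shown because the expression results turn on genes read as TEAD targets. The RefSeq promoter table used (build GRCh38.p14) was matched for 6 of the 8 genes, with 8 entries in all; CYR61 and TEAD1 were not searched. The 250 bases before each start were searched on both strands. The sequences run 5′ to 3′ along the strand of the gene, and capitals mark GGAATG or its reverse complement CATTCC.
CTGF, chr6:131951454-131951553, minus strand: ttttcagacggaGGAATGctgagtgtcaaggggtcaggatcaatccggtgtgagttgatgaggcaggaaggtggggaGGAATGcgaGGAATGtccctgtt
ANKRD1, chr10:90921290-90921319, minus strand: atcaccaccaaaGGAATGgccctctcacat
ANKRD1, chr10:90921198-90921227, minus strand: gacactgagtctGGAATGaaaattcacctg
AMOTL2, chr3:134374499-134374528, minus strand: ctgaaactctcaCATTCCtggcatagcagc
AJUBA, chr14:22976884-22976913, minus strand: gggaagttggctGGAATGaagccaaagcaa
YAP1, chr11:102110273-102110302, plus strand: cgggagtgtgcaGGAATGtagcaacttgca

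CTGF held 3 matches, 169, 104 and 95 bases before its start. ANKRD1 held 2, at 220 and 128 bases, and AMOTL2, AJUBA and YAP1 held 1 each, for AMOTL2 and AJUBA in 1 of 2 entries. No match was found in the window of LATS2. Of 35116 promoters of the same length 11.9% held at least 1 match, 0.94% at least 2 and 0.0826% at least 3. The letters CTTTGA, the core bound by the WNT effectors TCF and LEF, or their reverse complement TCAAAG, were found in the AMOTL2 entry printed above and in no other entry of the 6 genes, against 11.2% of all promoters. The AP-1 letters TGANTCA, whose reverse complement is the same pattern, were found in the ANKRD1 window only, against 6.57% of all promoters. These matches are a description of letters and not of binding. No match of a motif in these windows overlapped that of another.

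Depth ran from 2.45 to 65.7 M counts with a median of 18.99 M, and 4 libraries stood apart. Wnt3a 0 h replicate 1 had the lowest depth, and bcat 0 h replicate 1, bcat 24 h replicate 1 and bcat 48 h replicate 2 held 34.1%, 60.4% and 60.3% ribosomal RNA against a median of 5.14%. The share also differed by arm. It was 0.420% to 4.95% in the Wnt3a libraries and 1.71% to 18.8% in those of CHIR99021, highest in 0 h replicate 1. In the bcat arm it was 5.79% in 0 h replicate 2 and 14.4% to 60.4% in all others, and its part in the changes was not tested beyond the refits given here. CTNNB1, which encodes beta-catenin and is the gene of the construct, was at 652 and 750.1 counts per M counts of depth (CPM) at bcat 0 h and at 2352 and 2395 CPM at 24 h of doxycycline, and CPM per symbol cannot tell the construct from the gene of the cell. All 8 primed pluripotency markers, POU5F1 among them, had counts at 0 h, with a summed level of 4649 to 5856 CPM over the 6 libraries. Levels are in CPM after TMM scaling, which corrects depth for genes that take a large share, and changes are log2 differences fitted by edgeR between a treated time and the 0 h libraries of the same arm. A change was called at an adjusted p below 0.05, adjusted over all genes tested. The lone Wnt3a 72 h library has no spread of its own, so every test that involves it, steps included, assumes that it varies like the other groups. P-values measure the spread between these libraries, which the labels call biological replicates.

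Under Wnt3a every call among the members was a rise. Of 48 values, 8 genes at 6 times, 34 were called higher and 0 lower. At 8 h 3 of 8 members rose, where 2.28% of all genes tested rose and 1.18% fell. At 24 h 7 of 8 rose, where 9.32% of all genes rose and 10.9% fell. The count was 4 of 8 at 48 h (7.58% of all genes higher, 8.56% lower) and again at 72 h (8.43% and 7.94%). At 96 h and at 120 h 8 of 8 rose, where 18.8% of all genes rose and 21% fell at 96 h and 12.2% and 15.6% at 120 h. The median change of the 8 members was 2.11 at 24 h, 0.46 at 48 h and 2.41 at 96 h, where the median over all genes was 0.04, 0.00 and 0.07. The median of the members was thus high at 24 h, low at 48 h and high again at 96 h. Between successive times, 7 members rose and 1 fell from 8 to 24 h, with 10.8% and 15.3% of all genes. From 24 to 48 h 0 rose and 6 fell (10% and 8.96%), from 48 to 72 h 1 rose and 0 fell (1.58% and 0.876%) and from 72 to 96 h 7 rose and 0 fell (4.33% and 8.89%). From 96 to 120 h 1 rose, YAP1, and 2 fell, CTGF and CYR61 (11.8% and 11%). Without 96 h replicate 1 the rises from 72 to 96 h of AJUBA, AMOTL2, LATS2 and TEAD1 no longer passed (adjusted p = 0.0589, 0.0920, 0.201 and 0.448).

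CTGF and CYR61 encode secreted matricellular proteins that bind integrins and growth factors, and are the most widely used YAP readouts. CTGF was at 16.2 and 17 CPM at Wnt3a 0 h, 23.6 and 23 at 8 h, 128 and 140.3 at 24 h and 20.02 and 18.8 at 48 h. It was at 21.7 CPM in the lone 72 h library, 183 and 118 at 96 h and 46.6 and 38.7 at 120 h. Both 24 h and both 96 h libraries lay above every other Wnt3a library, and the 48 h libraries lay only just above those of 0 h. The change from 0 h was 3.0 ± 0.18 (SE), adjusted p = 3.82e-13 at 24 h, an 8.00-fold level. It was 0.21 ± 0.18, adjusted p = 0.518 at 48 h, and 3.17 ± 0.18, adjusted p = 2.21e-14 at 96 h. Between successive times CTGF rose from 8 to 24 h (2.52 ± 0.16, adjusted p = 5.67e-12) and fell from 24 to 48 h (-2.79 ± 0.17, adjusted p = 1.0e-12). From the lone 72 h library to 96 h it rose again, with the spread taken from the other groups (2.79 ± 0.22, adjusted p = 2.01e-09), and fell from 96 to 120 h (-1.82 ± 0.16, adjusted p = 3.73e-09), where it was still above 0 h (1.35 ± 0.18, adjusted p = 5.57e-07).

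CYR61 followed the same course. Its level was 12.3 and 10.4 CPM at 0 h, 13.1 and 12.5 at 8 h, 75 and 84.4 at 24 h and 11 and 11.6 at 48 h. At 72 h it was 16 CPM, at 96 h 192 and 106 and at 120 h 43 and 28.2. The libraries of 0 and 48 h overlapped, and those of 24 and 96 h stood above all others of the arm. The change from 0 h was 2.87 ± 0.25 (SE), adjusted p = 1.97e-09 at 24 h, and 3.78 ± 0.26, adjusted p = 2.52e-12 at 96 h, a 13.7-fold level. The steps from 24 to 48 h (-2.81 ± 0.24, adjusted p = 1.75e-09) and from 72 to 96 h (3.22 ± 0.31, adjusted p = 8.07e-08) were called in opposite directions. Over the 19 group means, CYR61 was the gene whose log2 level was most like that of CTGF among 4232 candidates with a wide enough range (Pearson 0.98), and CTGF the one most like CYR61. The next most like CTGF were WEE1, a kinase that holds back entry into mitosis, at 0.88 and PLAU, a secreted protease, at 0.87. The correlation of WEE1 with CYR61 was 0.85. These correlations are descriptions over 19 points that share arms, libraries and medium.

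**Figure D1:**
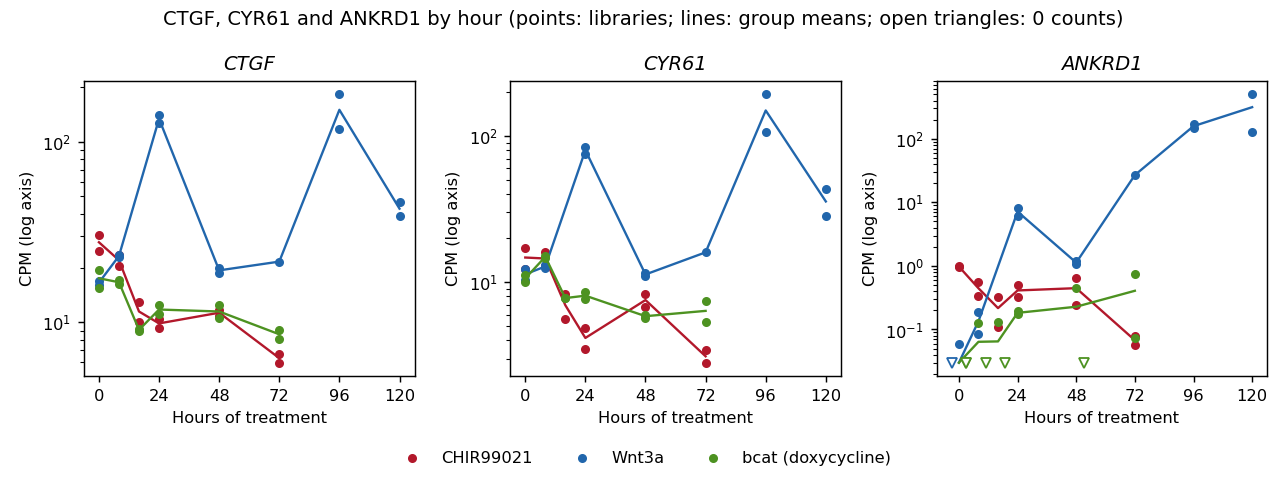
Level of CTGF, CYR61 and ANKRD1 in CPM on a log axis against hours of treatment, with a point per library, lines through the group means and open triangles, moved sideways by arm, for libraries at 0 counts. Under Wnt3a CTGF and CYR61 peaked at 24 and 96 h, while under CHIR99021 and in the bcat arm all their libraries after 8 h were below both of their own 0 h group.

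ANKRD1 encodes an ankyrin repeat protein of the nucleus and the sarcomere, and is induced by YAP and by mechanical load. At Wnt3a 0 h it had 0 counts in replicate 1 and 4 in replicate 2, 0 and 0.0587 CPM. At 24 h it was at 6.17 and 8.14 CPM, at 48 h at 1.20 and 1.06 and in the 72 h library at 26.9. At 96 h it was at 171 and 146 CPM and at 120 h at 499 and 130.1. Every library from 24 h on lay above both of 0 h, and the libraries of 96 and 120 h overlapped. Per count of depth the ratio to 0 h was 131 at 24 h (95% exact interval 50.6 to 484), 19.4 at 48 h (7.04 to 74.7) and 2815 at 96 h (1099 to 10334), intervals that cover counting error only. The fitted change was called at 24 h (adjusted p = 3.93e-05), 72 h (9.33e-07), 96 h (2.47e-09) and 120 h (9.53e-10), and at 48 h (0.0307). Because the 0 h level rests on the 4 counts of replicate 2, the fitted size depends on the prior count, and without that library the calls of ANKRD1 at 24 h (adjusted p = 0.116) and 48 h (0.580) were lost while those at 72 h (0.00973), 96 h (3.27e-05) and 120 h (1.12e-05) held. At 48 h the call was also lost without any other library of 0 or 48 h (0.0507 to 0.160), without a filter on low counts (0.0599) and with only the Wnt3a libraries in the fit (0.212).

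The steps between times do not use the 0 h libraries. From 8 h, where it had 8 counts in all, to 24 h ANKRD1 rose by 5.88 ± 0.79, adjusted p = 1.97e-05, a value of 5.24 without 8 h replicate 2. From 24 to 48 h it changed by -2.71 ± 0.62, adjusted p = 0.00408. With the spread of the lone 72 h library taken from the other groups, it rose by 4.61 ± 0.62, adjusted p = 0.000162 from 48 to 72 h and by 2.56 ± 0.53, adjusted p = 0.00306 from 72 to 96 h. The step from 96 to 120 h did not pass the test (0.99 ± 0.38, adjusted p = 0.0708), with 120 h libraries at 499 and 130 CPM. The level of ANKRD1 in the 72 h library was thus above both of 24 h, where those of CTGF and CYR61 were below. When only the Wnt3a libraries were fitted, the steps of ANKRD1 from 24 to 48, 48 to 72 and 72 to 96 h had adjusted p of 0.0935, 0.0717 and 0.0947, and the step from 24 to 48 h also lost its call without 48 h replicate 2 (0.0915). Nearest to ANKRD1 over the 19 group means were CST1, a cystatin, at 0.95, SEMA3G, a semaphorin, at 0.93 and LRP1B at 0.93 by Pearson correlation. By Spearman correlation they were 3 other genes, DUSP4, GIPR and CAPRIN2, at 0.90, 0.86 and 0.86, so the nearest genes depend on the measure.

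AMOTL2 and LATS2 encode restraints on YAP. The angiomotin AMOTL2 binds YAP at cell junctions and actin, and LATS2 is a kinase that phosphorylates it. AMOTL2 was at 28.5 and 31.3 CPM at Wnt3a 0 h, 111 and 108 at 8 h, 193 and 214 at 24 h and 151 and 159 at 48 h. It was at 165 CPM at 72 h, 408 and 252 at 96 h and 377 and 203 at 120 h. No treated library overlapped those of 0 h, and the change was called at every time, from 1.85 ± 0.21 (SE), adjusted p = 9.62e-07 at 8 h to 3.44 ± 0.21, adjusted p = 1.85e-12 at 96 h. The fall from 24 to 48 h did not pass the test (-0.39 ± 0.19, adjusted p = 0.158).

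LATS2 was at 13.3 and 21 CPM at Wnt3a 0 h, 41 and 40.9 at 24 h, 16.9 and 23.9 at 48 h, 32.2 at 72 h, 65.8 and 50.6 at 96 h and 52.3 and 36.3 at 120 h. The libraries of 0 and 48 h overlapped and all others from 24 h on were higher. LATS2 rose at 24 h (1.14 ± 0.23, adjusted p = 0.000651), 96 h (1.65 ± 0.23, adjusted p = 1.62e-06) and 120 h (1.26 ± 0.23, adjusted p = 0.000130), and its fall from 24 to 48 h was called (-0.98 ± 0.22, adjusted p = 0.00217), though not without 48 h replicate 1 (0.0536). With Wnt3a 0 h replicate 1 left out, the call at 72 h (0.79 ± 0.27, adjusted p = 0.0405) no longer passed (adjusted p = 0.154). AJUBA, a LIM protein of junctions that holds back LATS kinases, was at 19.7 and 27.2 CPM at 0 h, 63.3 and 65.1 at 24 h, 34.4 and 46 at 48 h, 89.9 and 65.2 at 96 h and 102 and 63.1 at 120 h. Its libraries at these times all lay above both of 0 h. AJUBA rose by 1.38 ± 0.20, adjusted p = 1.08e-05 at 24 h and by 1.74 ± 0.20, adjusted p = 9.52e-08 at 120 h. With Wnt3a 0 h replicate 1 left out its call at 48 h (0.71 ± 0.20, adjusted p = 0.0131) no longer passed (0.0839), nor with 48 h replicate 2 left out (0.229).

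**Figure D2:**
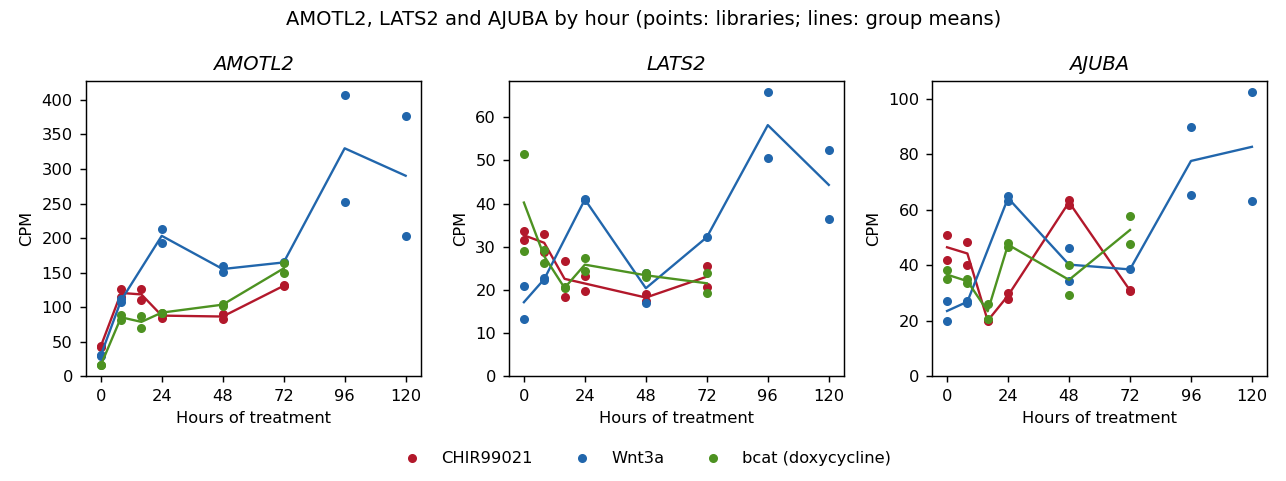
Level of AMOTL2, LATS2 and AJUBA in CPM against hours of treatment, with a point per library and lines through the group means. AMOTL2 stood above 0 h at every treated time of the 3 arms. LATS2 and AJUBA had calls above 0 h under Wnt3a and calls below it under CHIR99021. In the bcat arm LATS2 was called below 0 h at 16, 48 and 72 h. AJUBA was called below it there at 16 h only, and its 24 and 72 h libraries lay above both of 0 h.

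TEAD1 and YAP1 encode the DNA-binding partner and the coactivator themselves. TEAD1 was at 67.6 and 63.9 CPM at Wnt3a 0 h, 140.3 and 137 at 8 h, 175 and 188 at 24 h, 121 and 137 at 48 h and 233 and 174 at 96 h. All treated libraries were above both of 0 h, and the change was called at each time, from 0.98 ± 0.13, adjusted p = 1.53e-06 at 48 h to 1.64 ± 0.13, adjusted p = 3.59e-11 at 96 h. YAP1 was called at 8, 96 and 120 h. It was at 158 and 168 CPM at 0 h, 256 and 261 at 8 h, 158 and 154 at 24 h and 279 and 284 at 120 h. It rose at 8 h (0.66 ± 0.11, adjusted p = 0.000184) and at 120 h (0.78 ± 0.11, adjusted p = 1.93e-06), while at 24 h, where CTGF and CYR61 were high, both libraries lay just below those of 0 h and the change was -0.07 ± 0.11, adjusted p = 0.715. The call at 96 h (0.28 ± 0.11, adjusted p = 0.0406) was lost without any of the 4 libraries of 0 and 96 h, where the adjusted p ran from 0.0872 to 0.129.

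**Figure D3:**
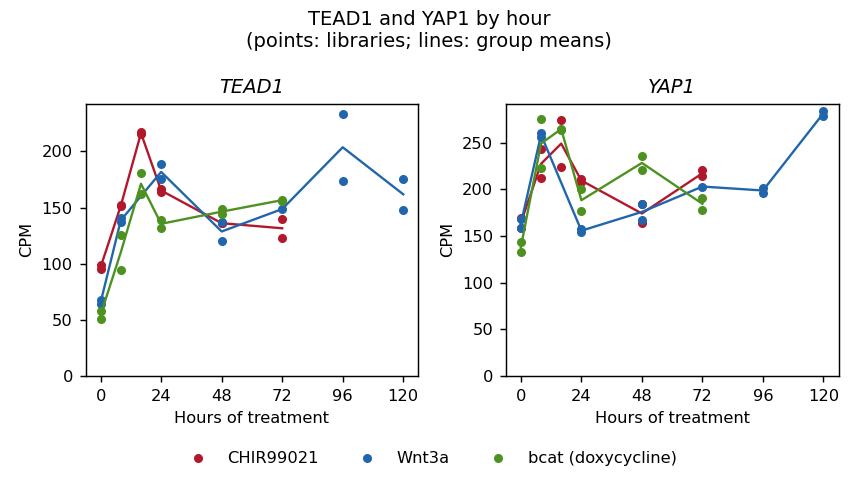
Level of TEAD1 and YAP1 in CPM against hours of treatment, with a point per library and lines through the group means. TEAD1 stood above its own 0 h group at every treated time of the 3 arms, while YAP1 at Wnt3a 24 h was just below its 0 h libraries.

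Other measures of the Wnt3a arm are given beside these changes, and their part in them was not tested. The median change of 672 lincRNA genes minus that of 15874 protein-coding genes was 0.53 at 24 h and 0.70 at 96 h, against -0.06 at 8 h, 0.07 at 48 h, 0.20 at 72 h and 0.38 at 120 h. Definitive endoderm markers, 4 of 4 with counts, summed to 0.616 to 0.970 CPM at 0 h, 4.86 to 6.42 at 24 h and 152 to 232 at 96 h. Amnion and trophoblast markers summed to 3.16 to 3.23 CPM at 0 h, with GATA3 and HAND1 at 0, and to 2.47 to 3.07 at 24 h. They summed to 7.40 to 9.98 CPM at 96 h and to 46.6 to 51.7 at 120 h. Cardiac markers summed to 2.14 to 3.56 CPM at 0 h and 20.2 to 30.9 at 96 h, where most of the sum was MYL7 (18.5 to 28 CPM) and 1 of the 5 was called. Endothelial markers summed to 5.46 to 7.76 CPM and 44.3 to 52.2, with 2 of 4 called at 96 h. The fibroblast markers summed to 127 CPM at 0 h, 132 to 155 at 24 h and 154 to 176 at 96 h. Streak and mesoderm markers summed to 1.94 to 2.05 CPM at 0 h, 89.2 to 96.7 at 8 h and 18.8 to 21.4 at 24 h. They summed to 634 to 686 at 48 h, 320 at 72 h and 134 to 154 at 96 h, with MSGN1 at 0 at 0, 24 and 96 h. Primed pluripotency markers summed to 4900 to 5856 CPM at 0 h and 2254 to 2475 at 96 h, where 6 of 8 fell. No marker list had a higher summed level at 24 h than at both 0 and 48 h. Median changes from 0 h at 24 and 48 h were 0.99 and 0.22 for endothelial and 0.86 and 0.69 for cardiac markers. Those of amnion and trophoblast markers were 2.96 and 0. Their sum at 24 h was not above that of 0 h, so the median of 2.96 rests on genes with few counts. In each of these lists 1 gene was called higher at 24 h. The medians of streak (2.53 and 6.69) and endoderm markers (2.53 and 8.67) were higher at 48 h. Those of pluripotency and fibroblast markers were below 0 at both times. A list of 10 immediate early genes, chosen after its values were seen, summed to 69.9 to 83.4 CPM at 0 h and 119 to 121 at 8 h. It summed to 273 to 276 CPM at 24 h, 251 to 309 at 48 h, 209 at 72 h, 340 to 432 at 96 h and 109 to 176 at 120 h.

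In the CHIR99021 arm members were called in both directions. Of 40 values, 14 were called higher, all of AMOTL2, TEAD1 or YAP1, and 13 lower, all of CTGF, CYR61, ANKRD1, LATS2 or AJUBA. At 8 h 3 members rose and 0 fell, against 9.2% and 11.7% of all genes. At 16 h and at 24 h 3 rose and 3 fell, against 6.55% and 9.34% at 16 h and 5.91% and 8.61% at 24 h. At 48 h 2 rose and 3 fell, against 15.7% and 18.1%, and at 72 h 3 rose and 4 fell, against 11.5% and 13.4%. The median change of the members ran from -0.78 at 16 h to -0.04 at 8 h, that of all genes from -0.02 to 0.02 over the 5 times. Between successive times 1 member rose and 3 fell from 8 to 16 h (5.83% and 5.52% of all genes), and 0 rose and 1 fell from 16 to 24 h (3.9% and 4.19%). From 24 to 48 h 2 rose and 0 fell (12.7% and 12.9%), and from 48 to 72 h 2 rose and 3 fell (7.51% and 5.49%).

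CTGF was at 30.6 and 25 CPM at CHIR99021 0 h, 23.6 and 20.5 at 8 h, 10.1 and 12.9 at 16 h, 10.5 and 9.26 at 24 h, 11.7 and 10.9 at 48 h and 6.69 and 5.97 at 72 h. Every treated library was below both of 0 h. CTGF fell at 16 h (-1.25 ± 0.17, adjusted p = 2.45e-06) and at 24 h (-1.50 ± 0.17, adjusted p = 1.43e-07), and lay lowest at 72 h (-2.11 ± 0.18, adjusted p = 6.45e-11), 4.32-fold below 0 h. CYR61 was at 17.1 and 12.4 CPM at 0 h, 3.48 and 4.83 at 24 h, 6.77 and 8.32 at 48 h and 2.82 and 3.41 at 72 h, with no overlap between 0 h and these times. Its call at 16 h (-1.03 ± 0.24, adjusted p = 0.00293) was lost without 0 h replicate 1 (0.0665) or 16 h replicate 1 (0.0622). CYR61 fell by 1.76 on the log2 scale at 24 h and by 2.27 at 72 h (adjusted p = 9.76e-06 and 6.01e-08). From 24 to 48 h CYR61 went up (0.79 ± 0.27, adjusted p = 0.0269), a call lost without 24 h replicate 1 (adjusted p = 0.172) or 48 h replicate 2 (0.160). ANKRD1 had 52 counts at 0 h, 1.01 and 0.948 CPM, and 4 counts at 72 h, 0.0579 and 0.0776 CPM, a ratio of 0.0638 (95% exact interval 0.0167 to 0.173). Its call at 72 h (adjusted p = 0.0258) was lost without any of the 4 libraries of 0 and 72 h (0.0604 to 0.314), and no other time passed.

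LATS2 was at 33.7 and 31.6 CPM at CHIR99021 0 h and at 17.3 and 19.1 at 48 h, the only time called in the main fit (-0.84 ± 0.22, adjusted p = 0.00326), although from 16 h on all its libraries were below both of 0 h. Its falls at 16, 24 and 72 h passed with this arm fitted alone (-0.47, -0.54 and -0.49, adjusted p = 0.0478, 0.0279 and 0.0281). Those at 24 and 72 h also passed without the 4 libraries that stood apart (-0.58 and -0.51). AJUBA was at 50.9 and 42 CPM at 0 h, 20.1 and 19.8 at 16 h, 28 and 30.1 at 24 h, 63.5 and 61.9 at 48 h and 30.7 and 31.1 at 72 h. The 48 h libraries were the highest of the arm and those of 16 h the lowest. The change of AJUBA at 48 h (0.44 ± 0.19, adjusted p = 0.0723) passed under RLE scaling, DESeq2, removal of ribosomal RNA genes and a fit of this arm alone (0.46 to 0.48, adjusted p from 0.00430 to 0.04997). AJUBA fell from 8 to 16 h (-1.15 ± 0.19, adjusted p = 0.000195), rose from 24 to 48 h (1.11 ± 0.19, adjusted p = 4.76e-05) and fell from 48 to 72 h (-1.02 ± 0.19, adjusted p = 0.000296). Against 0 h its fall was called at 16 h (-1.22 ± 0.19, adjusted p = 3.74e-05), and the calls at 24 and 72 h were lost without CHIR99021 0 h replicate 1 (adjusted p = 0.172 and 0.199) or either library of the treated time (0.117 and 0.0734 at 24 h, 0.118 and 0.0762 at 72 h).

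AMOTL2 went from 44.3 and 41.7 CPM at CHIR99021 0 h to 126 and 115 at 8 h, 84.7 and 90.5 at 24 h and 131 and 130.3 at 72 h, with no overlap between 0 h and any later time. The change was 1.49 ± 0.19, adjusted p = 2.14e-06 at 8 h and 1.00 ± 0.19, adjusted p = 0.000145 at 48 h, the smallest of the 5. TEAD1 went from 95.6 and 98.6 CPM to 152 and 151 at 8 h and 216 and 217 at 16 h, then to 123 and 139.9 at 72 h. It was highest at 16 h (1.16 ± 0.13, adjusted p = 4.48e-08), fell from 16 to 24 h (-0.39 ± 0.12, adjusted p = 0.0486), and at 72 h its smaller change (0.44 ± 0.12, adjusted p = 0.00870) was no longer called without 0 h replicate 1 (adjusted p = 0.0686) or 72 h replicate 2 (0.0861). The call of the fall from 16 to 24 h was lost without any of the 4 libraries (adjusted p 0.122 to 0.217). YAP1 went from 159 and 169.7 CPM at 0 h to 224 and 274 at 16 h (0.60 ± 0.11, adjusted p = 0.000145) and was at 164 and 184 at 48 h, where its libraries overlapped those of 0 h. The call of YAP1 at 24 h (0.35 ± 0.11, adjusted p = 0.0253) was lost without any of the 4 libraries of 0 and 24 h (0.0688 to 0.196). Those at 8 h and 72 h were lost without 8 h replicate 1 (0.0637) and 0 h replicate 1 (0.0695).

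Cell type markers moved in the CHIR99021 arm too, and their part in the members' changes was not tested. Primed pluripotency markers summed to 4876 to 4958 CPM at 0 h, 1799 to 1836 at 48 h and 2268 to 2319 at 72 h, and 8 of 8 fell at both times. Streak and mesoderm markers went from 1.76 to 2.43 CPM, with MSGN1 at 0, to 609 to 669.5 at 72 h, where 6 of 6 rose. Definitive endoderm markers summed to 2.31 to 2.41 CPM at 0 h and 238 to 271 at 48 h. At 72 h they summed to 45.2 to 69.3, where most of the sum was CXCR4 (mean 55.3 CPM). SOX17 had no counts at 0, 48 or 72 h. Fibroblast markers summed to 123 to 129 CPM at 0 h and 389 to 399.7 at 48 h, where 1 of 5 was called. Cardiac and endothelial markers summed to less than 12 CPM at 0, 24, 48 and 72 h, and amnion and trophoblast markers, with GATA3 and HAND1 at 0 at 0 h, to less than 4.

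In the bcat arm, which received neither the ligand nor the inhibitor, 15 of 40 values were called higher and 9 lower. The 15 were AMOTL2, TEAD1 and YAP1 at all 5 times. At 8 h 3 rose and 0 fell, against 10.7% and 8.01% of all genes. At 16 h 3 rose and 3 fell (6.23% and 4.69%), at 24 h 3 and 1 (6.87% and 5.95%), at 48 h 3 and 3 (11.1% and 10.1%) and at 72 h 3 and 2 (13.6% and 13.6%, the shares of all genes in parentheses). Without the 4 libraries that stood apart, 14 higher and 3 lower calls were left.

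AMOTL2 was at 15.6 and 15.6 CPM at bcat 0 h, 88.9 and 81.6 at 8 h, 92.1 and 91.9 at 24 h, 102 and 105 at 48 h and 149 and 163 at 72 h, with no overlap between 0 h and later times. The change was 2.45 ± 0.23, adjusted p = 1.74e-08 at 8 h and 3.32 ± 0.23, adjusted p = 1.44e-11 at 72 h, a 9.99-fold level. TEAD1 was at 58.2 and 50.9 CPM at 0 h, 126 and 94.6 at 8 h, 181 and 162 at 16 h and 156 and 157 at 72 h. Its change was largest at 16 h (1.66 ± 0.14, adjusted p = 2.98e-10). YAP1 was at 144 and 133 CPM at 0 h, 275 and 223 at 8 h, 264 and 265 at 16 h, 201 and 176 at 24 h and 191 and 178 at 72 h. All treated libraries were above both of 0 h, and YAP1 rose by 0.94 ± 0.11, adjusted p = 4.40e-07 at 16 h. The calls of YAP1 at 24 and 72 h were lost without bcat 0 h replicate 2 (adjusted p = 0.0931 and 0.0774), and at 24 h also without bcat 24 h replicate 1 (0.119), a library rich in ribosomal RNA.

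CTGF in the bcat arm was at 15.6 and 19.5 CPM at 0 h, 16.2 and 17.1 at 8 h, 8.93 and 9.24 at 16 h, 11.1 and 12.5 at 24 h, 10.5 and 12.4 at 48 h and 8.10 and 9.07 at 72 h. The 8 h libraries overlapped those of 0 h and all later ones were lower. CTGF fell at 16 h (-0.99 ± 0.19, adjusted p = 0.000697) and at 72 h (-1.07 ± 0.20, adjusted p = 0.000127). The calls at 16, 24 and 48 h were lost without bcat 0 h replicate 2 (adjusted p = 0.0845, 0.443 and 0.312). That at 24 h was also lost without either 24 h library, and that at 48 h without 48 h replicate 1 (adjusted p = 0.134 and 0.0641 for 24 h and 0.163 for 48 h). CYR61 was at 11.2 and 10.1 CPM at 0 h, 15.2 and 14.6 at 8 h, 5.70 and 6.01 at 48 h and 5.35 and 7.38 at 72 h, and its call at 48 h (-0.85 ± 0.30, adjusted p = 0.0432) was lost without any of the 4 libraries of 0 and 48 h (0.0910 to 0.197). LATS2 was at 51.5 and 29 CPM at 0 h, 20.3 and 20.6 at 16 h, 23.9 and 22.9 at 48 h and 23.8 and 19.2 at 72 h. The higher 0 h value is that of replicate 1, with 34.1% ribosomal RNA, and without it the calls of LATS2 at 16, 48 and 72 h were lost (adjusted p = 0.233, 0.485 and 0.255). They were lost too without either treated library at 16 h (0.0761 and 0.0521) and 48 h (0.104 and 0.0976) and without replicate 2 at 72 h (0.0924). AJUBA at 16 h (-0.67 ± 0.21, adjusted p = 0.0326) lost its call without either 0 h library (0.0645 and 0.227) or 16 h replicate 1 (0.297). AJUBA was at 35 and 38.2 CPM at 0 h, 20.7 and 26.1 at 16 h, 46.6 and 48.2 at 24 h and 57.8 and 47.6 at 72 h. Its rise at 72 h was not called in the main fit. It passed under RLE scaling, DESeq2, undivided values, removal of ribosomal RNA genes and a fit of this arm alone (0.51 to 0.54, adjusted p from 0.0259 to 0.0496). ANKRD1 had 0 counts in both bcat 0 h libraries, which allows up to 0.235 CPM over the group, and 5 to 11 counts at the later times, so no fold is given, and no time passed the test.

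Markers in the bcat arm moved as follows, and their part was not tested. Primed pluripotency markers summed to 4649 to 5202 CPM at 0 h and 1897 to 2109 at 72 h, where 8 of 8 fell. Streak and mesoderm markers went from 1.47 to 2.35 CPM, with MESP1 and MSGN1 at 0, to 214 to 253 at 72 h, where 6 of 6 rose. Definitive endoderm markers summed to 1.76 to 2.35 CPM at 0 h, with FOXA2 at 0, and 73.5 to 76.96 at 72 h, with 1 of 4 called. Most of the sum at 72 h was the called gene, CXCR4, at a mean of 74.4 CPM. Fibroblast markers summed to 168 to 179.95 CPM and 434 to 466, with 1 of 5 called higher and 2 lower, with LUM at 0 at both times and POSTN at 72 h. Endothelial markers summed to 2.94 to 4.28 CPM, with CDH5 at 0, and 28.5 to 33.4, with 1 of 4 called. Cardiac markers were at 3.53 to 5.0 CPM, with NKX2-5 at 0, and 2.11 to 3.42. Amnion and trophoblast markers were at 6.53 to 8.82 CPM, with GATA3, TFAP2A, HAND1 and VTCN1 at 0, and 5.35 to 9.17.

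**Figure D4:**
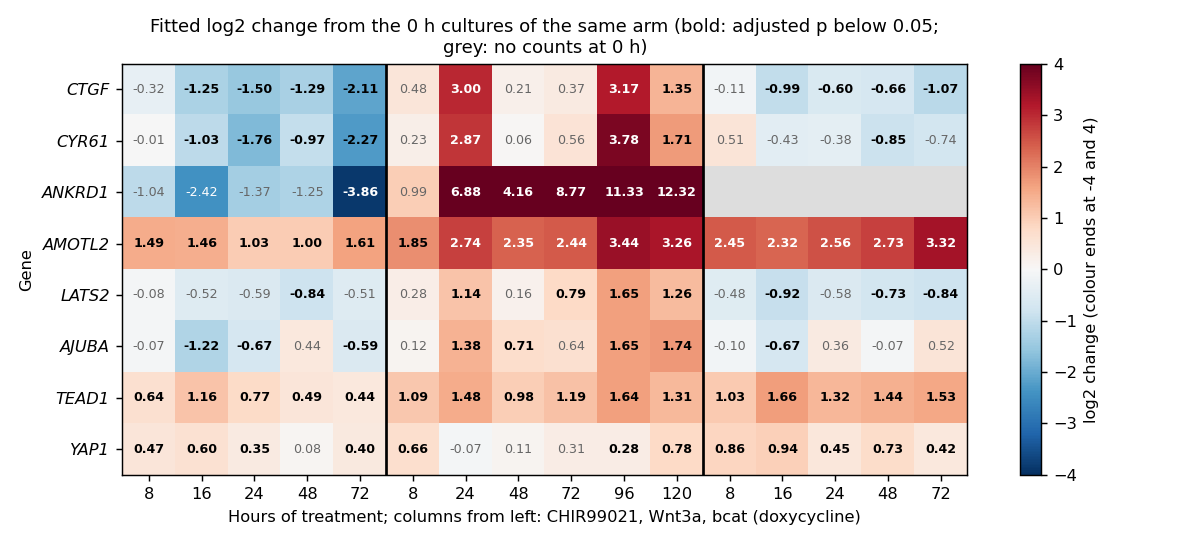
Fitted log2 change of each gene (rows) at each treated time against the 0 h libraries of its own arm (columns, in hours: CHIR99021, Wnt3a, bcat from left to right), with called values in bold and colour ending at -4 and 4. AMOTL2 and TEAD1 rose in all 16 columns, and CTGF and CYR61 rose at Wnt3a 24, 96 and 120 h and fell in 8 and 5 columns of the other arms; grey marks ANKRD1 in the bcat arm, which had no counts at 0 h.

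Across the 3 arms AMOTL2 and TEAD1 were therefore higher than their own 0 h level in 16 of 16 comparisons each, with changes from 1.00 to 3.44 for AMOTL2 and 0.44 to 1.66 for TEAD1, and YAP1 in 12 of 16. CTGF was higher in 3 and lower in 8, CYR61 higher in 3 and lower in 5, LATS2 and AJUBA each higher in 4 and lower in 4, and ANKRD1 higher in 5 and lower in 1. The comparisons of an arm share its 0 h libraries, so these counts are not of independent results. For AMOTL2 and TEAD1 bcat 0 h was the lowest of all groups, at a mean of 15.6 and 54.6 CPM. The shares of all genes are those given above at each time, and how many genes were called this often was not counted. Within the Wnt3a arm the log2 levels of CTGF and AMOTL2 over the 13 libraries had a Pearson correlation of 0.68, and within the CHIR99021 and bcat arms, over 12 libraries each, -0.60 and -0.67. That of CTGF and CYR61 was 0.94, 0.98 and 0.76 in the CHIR99021, Wnt3a and bcat arms. These are descriptions over libraries that share their time points.

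Whether a change differed between arms was tested as the change from own 0 h in 1 arm minus that in another, at times both arms have. The CHIR99021 and Wnt3a arms differed most often at 24 h, where 7 of 8 members had the lower change under CHIR99021 and 0 the higher, against 5.56% and 4.39% of all genes. At 8 h 1 was lower and 0 higher, against 3.28% and 1.37% of all genes, the 1 being CTGF (-0.80 ± 0.24, adjusted p = 0.0459), whose call was lost without any of the 8 h or 0 h libraries but CHIR99021 0 h replicate 2. The counts were 5 and 0 at 48 h (9.35% and 6.75%) and 6 and 0 at 72 h (5.26% and 3.73%). At 24 h the difference was -4.50 ± 0.25 (SE), adjusted p = 2.51e-13 for CTGF and -4.63 ± 0.36, adjusted p = 7.11e-10 for CYR61. For AJUBA it was -2.05 ± 0.28, adjusted p = 7.87e-06, for LATS2 -1.73 ± 0.32, adjusted p = 0.000501 and for AMOTL2 -1.71 ± 0.28, adjusted p = 0.000142. TEAD1 differed by less (-0.71 ± 0.18, adjusted p = 0.00912), and with Wnt3a 0 h replicate 2 left out neither its call (0.0571) nor that of ANKRD1 (0.0927) passed. YAP1 did not pass the test (0.42 ± 0.15, adjusted p = 0.0821). At 72 h, with 1 Wnt3a library, CTGF differed by -2.48 ± 0.27, adjusted p = 6.55e-08 and ANKRD1 by -12.63 ± 1.52, adjusted p = 1.08e-05, where the ANKRD1 value rests on few counts at both ends. At 48 h the calls of CTGF and AMOTL2 passed without any 1 library, while those of ANKRD1, CYR61 and LATS2 were each lost without Wnt3a 48 h replicate 2 (0.0948, 0.128 and 0.222), CHIR99021 48 h replicate 1 (0.0842, 0.167 and 0.0966) and further 0 h or 48 h libraries. At 72 h those of LATS2 and TEAD1 were lost without CHIR99021 72 h replicate 1 (0.0770 and 0.0714), and that of TEAD1 also without Wnt3a 0 h replicate 2 (0.0579).

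**Figure D5:**
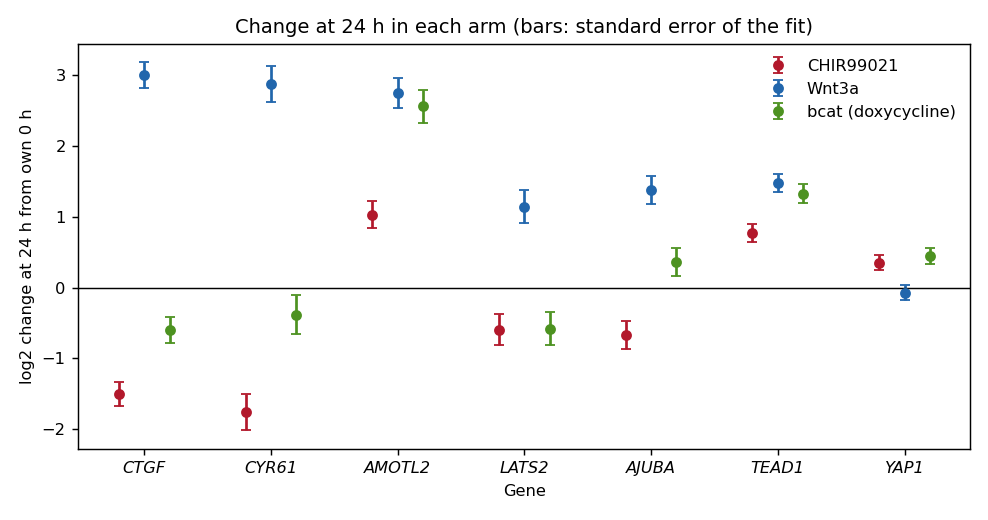
Fitted log2 change at 24 h from the 0 h libraries of the same arm, by gene, with a point per arm and bars for the standard error of the fit; ANKRD1 is not drawn because its bcat 0 h libraries had no counts. CTGF, CYR61, LATS2 and AJUBA were above 0 under Wnt3a and below it under CHIR99021, where LATS2 did not pass the test, and AMOTL2 and TEAD1 were above 0 in every arm.

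Wnt3a and bcat differed at 24 h in 5 of 8 members, 4 with the higher change under Wnt3a and 1 with the lower, against 5.95% and 9.06% of all genes. CTGF differed by 3.60 ± 0.26, adjusted p = 3.80e-11 and CYR61 by 3.26 ± 0.37, adjusted p = 4.72e-07. LATS2 differed by 1.72 ± 0.33, adjusted p = 0.000493, a value that fell to 1.06 (adjusted p = 0.0623) without the 4 libraries that stood apart. For AMOTL2 the difference at 24 h was 0.18 ± 0.31, adjusted p = 0.763, and for TEAD1 0.15 ± 0.19, adjusted p = 0.661, and neither passed the test. At 8 h 0 of 8 members differed by edgeR or by DESeq2, with 2 at an unadjusted p below 0.05, against 5.6% of all genes called. The calls of AJUBA (1.01 ± 0.28, adjusted p = 0.0141) and YAP1 (-0.52 ± 0.16, adjusted p = 0.0217) were lost without bcat 0 h replicate 2 (0.0767 and 0.0946), and that of YAP1 also without Wnt3a 0 h replicate 2, Wnt3a 24 h replicate 2 or bcat 24 h replicate 1 (0.0724 to 0.109). At 48 h 1 was higher, CTGF, and 1 lower, YAP1, against 5.29% and 6.84%, and at 72 h 3 were higher, CTGF, CYR61 and LATS2, and 0 lower, against 6.09% and 5.78%. The call of CTGF at 48 h was lost without Wnt3a 0 h replicate 2, Wnt3a 48 h replicate 1, bcat 0 h replicate 2 or bcat 48 h replicate 1 (0.0724 to 0.232). That of CYR61 at 72 h was lost without Wnt3a 0 h replicate 2, either bcat 0 h library or bcat 72 h replicate 1 (0.0951 to 0.195), and that of LATS2 without the 4 libraries that stood apart (0.0625).

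Between CHIR99021 and bcat edgeR called 0 of 8 members at 8 h and 0 of 8 at 16 h, against 2.7% and 2.78% of all genes, with 3 members at an unadjusted p below 0.05 at each time and 0 called by DESeq2 at each. At 24 h 4 members had the lower change under CHIR99021 and 0 the higher, against 3.3% and 1.65% of all genes, at 48 h 3 and 0 (10.6% and 5.97%) and at 72 h 5 and 0 (4% and 3.21%). AMOTL2 was among them at each of these times, with -1.72 ± 0.30, adjusted p = 0.000449 at 72 h, as was TEAD1 at 48 h and 72 h (-1.10 ± 0.18, adjusted p = 0.000197). For CTGF the difference at 72 h was -1.04 ± 0.27, adjusted p = 0.0135, and it lost its call without CHIR99021 0 h replicate 1 (adjusted p = 0.0702) or bcat 72 h replicate 2 (0.0567). At 24 h the calls of CTGF, CYR61 and AJUBA between these arms were each lost without CHIR99021 0 h replicate 1 (adjusted p = 0.148, 0.127 and 0.118) and without most of the other 0 and 24 h libraries of these arms, and that of AMOTL2 at 24 h without the 4 libraries that stood apart (0.0610). At 72 h those of AJUBA and CYR61 were also lost without CHIR99021 0 h replicate 1 (0.0668 and 0.0689). Over the 3 pairs of arms and their times 41 of 104 differences were called, and fewer without the 4 libraries that stood apart. For CHIR99021 minus Wnt3a 19 of 32 were called, all lower, and for CHIR99021 minus bcat 12 of 40, all lower. For Wnt3a minus bcat 8 of 32 were higher and 2 lower. The shares of all genes are those given above at each time, and the values of an arm share its 0 h libraries.

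The 0 h libraries, from which each arm's changes are measured, already differed between the arms in some members. Both H9 groups are labelled undifferentiated, yet CHIR99021 0 h was above Wnt3a 0 h in 5 of 8 members and below in 0, against 6.75% and 4.12% of all genes. CTGF was at 30.6 and 25 against 16.2 and 17 CPM (0.73 ± 0.17, adjusted p = 0.00555), AJUBA at 50.9 and 42 against 19.7 and 27.2 (0.91 ± 0.20, adjusted p = 0.00284) and TEAD1 at 95.6 and 98.6 against 67.6 and 63.9 (0.57 ± 0.13, adjusted p = 0.00361), with no overlap. The call of CTGF was lost without CHIR99021 0 h replicate 1 (0.0960) or Wnt3a 0 h replicate 2 (0.0706), and that of TEAD1 without the latter (0.0626). The other two called were ANKRD1, lost without any of the 4 libraries (0.0847 to 0.606), and LATS2, lost without any but Wnt3a 0 h replicate 2 (0.0678 to 0.154). The bcat line uninduced was below CHIR99021 0 h in 3 members and above in 0, against 9.6% and 6.06%. The lower ones were AMOTL2 (-1.46 ± 0.23, adjusted p = 5.46e-05), TEAD1 (-0.84 ± 0.13, adjusted p = 3.47e-05) and CTGF (-0.63 ± 0.18, adjusted p = 0.0160). It was above Wnt3a 0 h in 2 members and below in 1, against 12% and 12%. Of these 11 calls 4 were left without the 4 libraries that stood apart, namely CTGF and TEAD1 for CHIR99021 against Wnt3a and AMOTL2 and TEAD1 for bcat against CHIR99021. Treated levels can be read beside these: AMOTL2 at 72 h was at 131 and 130.3 CPM under CHIR99021 and 149 and 163 in the bcat arm, against 44.3 and 41.7 CPM and 15.6 and 15.6 CPM at 0 h of these arms.

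The rest of the pathway moved in both directions. Of 16 Hippo kinases, scaffolds and upstream regulators, all tested, 6 rose and 0 fell at Wnt3a 24 h (9.32% and 10.9% of all genes) and 7 rose and 4 fell at 96 h (18.8% and 21%). At CHIR99021 24 h 4 rose and 1 fell (5.91% and 8.61%), and at bcat 24 h 5 rose and 1 fell (6.87% and 5.95%). The median change of the list was 0.09, 0.08 and 0.17 at 24 h of Wnt3a, CHIR99021 and bcat. PTPN14, a phosphatase that binds YAP, rose at 24 h in all 3 arms, by 1.12 ± 0.17, adjusted p = 2.13e-05 under Wnt3a and 1.08 ± 0.17, adjusted p = 1.84e-05 under CHIR99021. At 72 h the angiomotin AMOTL1 rose in the bcat arm (2.94 ± 0.17, adjusted p = 1.76e-14), under CHIR99021 (1.32 ± 0.14, adjusted p = 8.07e-09) and under Wnt3a (0.82 ± 0.17, adjusted p = 0.000748). WTIP, a relative of AJUBA, rose at 72 h under Wnt3a (2.18 ± 0.23, adjusted p = 2.33e-08), in the bcat arm (1.37 ± 0.21, adjusted p = 7.03e-06) and under CHIR99021 (1.01 ± 0.18, adjusted p = 6.07e-05). SAV1, the scaffold of the MST kinases, fell at 72 h under CHIR99021 (-1.12 ± 0.13, adjusted p = 5.55e-08) and in the bcat arm (-0.96 ± 0.14, adjusted p = 2.01e-06).

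Of the 6 tested genes of the YAP partner and TEAD family other than YAP1 and TEAD1, 2 rose and 1 fell at Wnt3a 24 h and 2 rose and 2 fell at CHIR99021 24 h, beside the shares of all genes just given. At CHIR99021 8 h 4 rose and 0 fell (9.2% and 11.7% of all genes), and at bcat 72 h 2 rose and 1 fell (13.6% and 13.6%). Over the 16 treated times of the 3 arms 0 to 4 of these genes rose and 0 to 2 fell. WWTR1, which encodes TAZ, rose at 24 h under Wnt3a (0.81 ± 0.24, adjusted p = 0.0156) and under CHIR99021 (0.81 ± 0.22, adjusted p = 0.0105). TEAD3 rose under Wnt3a (0.98 ± 0.19, adjusted p = 0.000285) and TEAD2 fell (-0.50 ± 0.11, adjusted p = 0.00125). VGLL4, a protein that competes with YAP for TEAD, rose at 72 h under CHIR99021 (1.83 ± 0.12, adjusted p = 5.03e-13) and in the bcat arm (1.58 ± 0.13, adjusted p = 6.93e-11).

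Of 16 other published YAP and TAZ targets, 6 rose and 0 fell at Wnt3a 24 h with a median change of 0.09, 8 rose and 3 fell at 96 h with 1.18, and 10 rose and 1 fell at 120 h with 1.23. The shares of all genes were 9.32% and 10.9%, 18.8% and 21%, and 12.2% and 15.6%. At CHIR99021 8 h 5 rose and 2 fell (9.2% and 11.7% of all genes; median 0.44) and at 24 h 0 rose and 3 fell (5.91% and 8.61%; median -0.25). In the bcat arm 1 rose and 3 fell at 24 h (6.87% and 5.95%; median -0.40) and 3 rose and 2 fell at 72 h (13.6% and 13.6%; median 0.34). At Wnt3a 24 h GADD45B, a stress-response gene, rose by 4.23 ± 0.36, adjusted p = 4.89e-10, NUAK2, a kinase, by 1.64 ± 0.25, adjusted p = 2.78e-05 and ARHGEF17, a guanine nucleotide exchange factor, by 1.56 ± 0.32, adjusted p = 0.000833. AXL, a receptor tyrosine kinase, fell under CHIR99021 at 24 h (-0.65 ± 0.19, adjusted p = 0.0170) and 72 h (-0.93 ± 0.19, adjusted p = 0.000357). IGFBP3 fell most in the bcat arm at 72 h (-5.71 ± 0.54, adjusted p = 1.25e-09), while MYOF rose there (2.28 ± 0.38, adjusted p = 2.04e-05). Of 12 SRF targets and actin cytoskeleton genes, 5 rose and 0 fell at Wnt3a 24 h (9.32% and 10.9% of all genes) and 5 rose and 4 fell at 120 h (12.2% and 15.6%). At 8 h 6 rose and 0 fell both under CHIR99021 (9.2% and 11.7%) and in the bcat arm (10.7% and 8.01%), where at 72 h 0 rose and 7 fell (13.6% and 13.6%). TAGLN, an actin-binding protein, rose by 4.13 ± 0.33, adjusted p = 1.37e-08 at Wnt3a 24 h and by 1.96 ± 0.29, adjusted p = 4.86e-05 at CHIR99021 24 h, and fell at bcat 72 h (-1.40 ± 0.33, adjusted p = 0.00279). TPM1, a tropomyosin, fell at 72 h under CHIR99021 (-1.58 ± 0.11, adjusted p = 5.95e-13) and in the bcat arm (-1.96 ± 0.11, adjusted p = 1.01e-14).

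The genes lie apart in the genome, in GENCODE release 29 on build GRCh38, and no pair of them overlaps. CTGF (ENSG00000118523) lies at chr6:131948176-131951373 on the minus strand and CYR61 (ENSG00000142871) at chr1:85580761-85583962 on the plus strand. Other annotated genes lie on the opposite strand and overlap CTGF (AL133346.1), LATS2 (LATS2-AS1), TEAD1 and YAP1, and others overlap on the same strand with AMOTL2, LATS2, AJUBA and TEAD1. The library kit keeps the strand, but whether it was used in counting is not given in the sources used here, so reads of such pairs may not have been told apart.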

How the data were processed

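Total RNA libraries of H9 cells had been made with a kit that keeps the strand and quantified with kallisto 0.43.0, per the submitters' processing notes; no source used here gives the genome build, the annotation or how transcripts were summed. The authors deposited 1 table of estimated counts (expected counts) for 43412 gene rows in 38 libraries. Each column proved to be counts times a constant of its own (0.265 to 6.58), found as its most frequent value above 0; after division, 56.9% to 81.3% of values up to 20 lay within 0.1 of a whole number. The values were rounded to whole numbers, and 27 symbols turned into dates were kept as rows. The 2 identical Wnt3a 72 h columns were counted as 1 library, leaving 37 libraries in 19 groups.

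edgeR 4.0.16 (R 4.3.3, limma 3.58.1) filtered genes with filterByExpr, scaled by TMM and fitted all libraries by group with its quasi-likelihood test (18 residual degrees of freedom), with p-values adjusted by Benjamini-Hochberg over 24304 genes in each comparison. The test was checked on simulated counts. Comparisons were each time with the 0 h of its arm, successive times, the difference between arms in the change, and the 0 h groups. Depth limits genes with few counts, such as ANKRD1. Exact intervals of ratios are at 95% and cover counting error only, and the floor for 0 counts is 3 counts over the group. Alternatives were RLE scaling, DESeq2 1.42.0, no filter, undivided values, ribosomal RNA genes removed, only the arms compared, a replicate block, each library left out and 4 libraries left out. Beyond the 8 genes, at most 3 called genes per direction and list are named at 24 and 72 h, where the higher group reached 5 CPM, and for likeness the 3 genes of highest Pearson correlation. The members and lists were chosen with earlier results of these data known. Promoters are from RefSeq (GRCh38.p14), positions from GENCODE 29. Tables were handled with pandas 2.3.3, numpy 2.4.6 and scipy 1.17.1, and plots made with matplotlib 3.10.9. Of the genes whose pattern was most like a member's, 1 is not reported here.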

Additional observations from a re-analysis of the deposited data

Results flagged for a closer look

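In 6 comparisons a gene passed the test in both arms in opposite directions, and the difference between the arms passed the test as well. Some of the calls within an arm were lost when single libraries were left out, as given above. These were CTGF at bcat 24 h, AJUBA at CHIR99021 24 h, ANKRD1 at CHIR99021 72 h and LATS2 at 72 h of Wnt3a and bcat. CTGF at 24 h rose under Wnt3a (3.0) and fell under CHIR99021 (-1.50), a CHIR99021 minus Wnt3a difference of -4.50 on the log2 scale (edgeR, adjusted p = 2.51e-13). Against the bcat arm, where CTGF was at -0.60, the Wnt3a minus bcat difference was 3.60 (adjusted p = 3.80e-11). CYR61 at 24 h was at 2.87 under Wnt3a and -1.76 under CHIR99021, a difference of -4.63 (adjusted p = 7.11e-10). AJUBA at 24 h was at 1.38 and -0.67, a difference of -2.05 (adjusted p = 7.87e-06). LATS2 at 72 h was at 0.79 under Wnt3a, in 1 library, and -0.84 in the bcat arm, a difference of 1.64 (adjusted p = 0.00220) that did not pass without the 4 libraries that stood apart (adjusted p = 0.0625). ANKRD1 at 72 h was at 8.77 under Wnt3a and -3.86 under CHIR99021, a difference of -12.63 (adjusted p = 1.08e-05) whose size rests on 4 counts at Wnt3a 0 h and 4 at CHIR99021 72 h.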

How the results depend on the processing

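The members called numbered 27 for CHIR99021, 34 for Wnt3a, 24 for bcat, 41 for differences between arms, 11 at 0 h between arms and 42 for steps between times. Under RLE scaling, DESeq2, no filter, undivided values, ribosomal RNA genes removed and only the arms compared, each of these counts stayed within 1.5 times. Without the 4 libraries in doubt they were 29, 30, 17, 27, 4 and 40, of which those between arms (27) and at 0 h (4) moved by more than 1.5 times. Leaving out each library gave 20 to 27 for CHIR99021, 30 to 34 for Wnt3a, 19 to 24 for bcat, 32 to 41 between arms, 7 to 9 at 0 h and 38 to 44 for steps, and the lowest at 0 h came without CHIR99021 0 h replicate 1 and without Wnt3a 0 h replicate 2. The lone Wnt3a 72 h library could not be left out, and a group left with 1 library is assumed to vary like the others. With the replicate block the counts were 27, 33, 24, 41, 8 and 42. The labels give replicate numbers but no shared source. Correlations of the deviations of same-numbered libraries ran from -0.05 to 0.06 over 15 pairs of groups in each arm. They were taken over all genes tested, where counting error weighs on genes with few counts. They therefore cannot show whether same-numbered libraries shared a source. No called change turned its sign. The median change of all genes ran from -0.02 to 0.09, and up to 0.17 with RLE scaling, 0.15 with DESeq2, 0.21 without bcat 0 h replicate 2 and 0.27 without Wnt3a 0 h replicate 2. Causes of these differences were not tested.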

Other observations

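The genes whose pattern over the 19 group means was most like that of the remaining members are given as values. AMOTL2 was nearest to RP11-419I17.1, a transcript known by its clone name, at a Pearson correlation of 0.90, and to ST8SIA2, a polysialyltransferase, at 0.88. TEAD1 was nearest to AMOTL2 itself, at 0.85, and over the 37 libraries their log2 levels had a correlation of 0.84, with 0.69, 0.96 and 0.90 within the CHIR99021, Wnt3a and bcat arms. LATS2 was nearest to FADS6 at 0.89 and to COL9A3, a cartilage collagen chain, at 0.82. AJUBA was nearest to VASN, a membrane protein that binds TGF-beta, at 0.84 and to SMAD9, a transducer of BMP signals, at 0.79. YAP1 was nearest to SOCS2, a suppressor of cytokine signalling, at 0.82 and to SLC7A5, an amino acid transporter, at 0.77. By Spearman correlation the nearest gene was another for AMOTL2, LATS2 and TEAD1 and the same for AJUBA and YAP1. AMOTL2 was then not among the 3 genes nearest to TEAD1, which reached 0.70 at most. The 19 group means share arms and libraries, and CTGF and YAP1 had Pearson correlations of -0.32, -0.13 and -0.37 within the CHIR99021, Wnt3a and bcat arms.

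The summed level of 6 NODAL and SMAD target genes, a list chosen after its values were seen, was 21.7 to 24.9 CPM at Wnt3a 0 h and 133 to 149 at 8 h. It was 99.4 to 114 CPM at 24 h, 691 to 868 at 48 h, 359 at 72 h, 116 to 151 at 96 h and 57.6 to 58.2 at 120 h. CTGF was at a mean of 16.6 CPM at Wnt3a 0 h, 23.3 at 8 h, 134 at 24 h and 19.4 at 48 h. It was at 21.7 CPM in the lone 72 h library and at a mean of 150 at 96 h and 42.6 at 120 h. Under CHIR99021 the sum was 56.2 to 56.6 CPM at 24 h and 4.79 to 5.29 at 48 h. There CTGF was at a mean of 9.86 CPM at 24 h and 11.3 at 48 h. Any link between this list and the members was not tested.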
